A study of Rattus norvegicus with 29 samples.

Results

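Rab proteins are small GTPases that mark the membranes of the cell and direct traffic between them. Each binds GTP in its active form and then recruits effectors such as motors and tethers. Exchange factors load the GTP, and GTPase-activating proteins with a TBC domain end the signal. In the absorptive cells of the gut, Rab proteins are known for delivering enzymes and transporters to the brush border and for recycling them there. Rab30 resides on the Golgi apparatus, and in mouse liver it is known as a gene induced by fasting.

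The Rab genes were taken as those whose symbol in the platform annotation is Rab followed by a number, an optional letter and an optional digit. This gave 42 genes of the 14557 measured in the duodenum, each with 1 row on the array. A further 2 rows name a Rab gene together with another gene and were left out, and Rab genes without a row of their own were not analysed here.

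The tissue came from 29 male Long-Evans rats of wild-type genotype, aged 8 to 10 weeks, with 1 array per rat. The groups were Roux-en-Y gastric bypass (RYGB, 6 rats), a sham operation for RYGB (5 rats), vertical sleeve gastrectomy (VSG, 6 rats), a sham operation for VSG (6 rats), and a sham operation for VSG with paired feeding (6 rats). All rats were given a liquid diet (Osmolite) from the day before surgery and had the stomach exposed under isoflurane. VSG cut away about 80% of the stomach, and the sham pressed on it with blunt forceps where that cut would run. The bypass operation itself and the time from surgery to tissue collection are not described in the sources used here. RYGB leads food past the duodenum, whereas VSG leaves food passing through it. The RYGB set has no pair-fed sham, so bypass and any change in food intake cannot be told apart there.

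Values are log2 RMA expression, on which 1 unit is a 2-fold difference. The median of an array over all rows lay between 2.80 and 2.97, and a gene near or below that is dim. Fold changes come from 1 limma fit of all 29 arrays, and a gene was called at a Benjamini-Hochberg adjusted p under 0.05 over all 14557 genes. The SE of a fold change rests on a spread pooled over the 5 groups, also where the groups compared differ in spread. The tissue carried the markers of absorptive cells. Of their defining markers, 6 were measured, and Fabp1, Fabp2, Apoa4, Alpi and Vil1 were at 9.39 or higher on all arrays while Lct, which encodes lactase, ranged from 5.44 to 9.66. Transcripts of exocrine pancreas, which adjoins the duodenum, varied widely between rats. Of 26 acinar genes 19 were measured, 1 of which is also in the goblet cell list, and their mean was taken on each array. After RYGB it lay at 3.68 to 8.77, and RYGB sham rats lay at 3.35 to 5.89. After VSG it lay at 4.97 to 8.20, in VSG sham rats at 3.45 to 7.98 and in pair-fed rats at 3.23 to 8.85. The median difference of the 19 genes was 3.23 in RYGB against its sham, and none was called. Of the defining acinar markers, Prss1 and Cpa1 were at 0.82 and 1.45 on their lowest arrays.

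Rab30 was lower after gastric bypass than in any other group. The RYGB arrays lay at 5.76 to 6.17 with a median of 5.94. The 5 RYGB sham arrays were at 10.06, 9.40, 9.26, 8.75 and 8.997. All RYGB arrays therefore lay below all arrays of the sham, with a wide empty range between the groups. VSG arrays ran from 8.95 to 10.07 with a median of 9.58, and VSG sham arrays from 8.94 to 9.82 with a median of 9.30. These ranges overlapped each other and that of the RYGB sham. Pair-fed sham arrays ran from 6.60 to 9.86 with a median of 9.03.

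**Figure D1:**
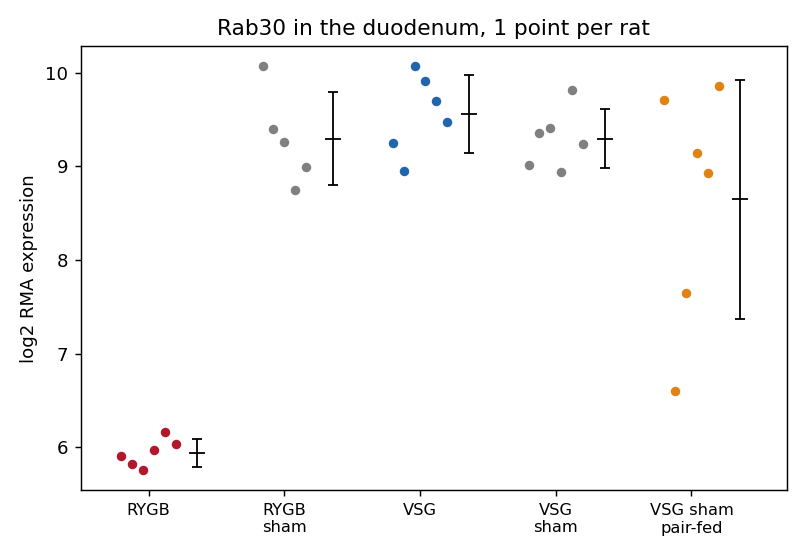
Expression of Rab30 on the log2 RMA scale (vertical axis) in the 5 groups (horizontal axis), with 1 point per rat and the group mean ± SD as a bar beside the points. The 6 RYGB rats sit between 5.76 and 6.17, and the lowest rat outside RYGB is a pair-fed sham at 6.60.

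The mean level of Rab30 was 5.94 ± 0.15 (SD, n = 6) in bypassed rats. In the sham rats of that set it was 9.29 ± 0.50 (SD, n = 5). Rab30 (Entrez gene 308821, probe set 17618286) fell 10.2-fold, at a log2 fold change of -3.35 ± 0.37 (SE, 95% interval -4.11 to -2.59, limma adjusted p = 5.48e-07). In a limma fit of the RYGB and RYGB sham arrays alone it was -3.35 ± 0.19 (adjusted p = 1.03e-06). An exact two-sided permutation test of the same arrays gave p = 0.00216, the smallest that 462 assignments allow. Rab30 was chosen with its fall in these arrays known, so this p describes the separation and is no independent test. In whole tissue, fewer cells that express a gene and less RNA per cell cannot be told apart. The fall was there with the acinar mean of each array as a covariate (-3.66 ± 0.41, adjusted p = 2.74e-06). It was also there without the 10 arrays highest in acinar transcripts, of which 4 were RYGB arrays (-3.30 ± 0.48, adjusted p = 0.00153). The enterocyte list, at 9.81 to 10.11 in RYGB and 9.74 to 10.11 in its sham, had a median difference of -0.02 over its 15 measured genes, of which 1, Anpep, was called higher. Of the 8 measured goblet cell genes 1 was called lower, Spink4 at -2.01 ± 0.25 (adjusted p = 4.26e-06), with a list median of 0.01 and a list mean of 8.63 to 9.27 in RYGB beside 9.11 to 9.36 in its sham. Of the 11 measured genes of enteric neurons and glia 1 was called lower, Vip at -1.22 ± 0.24 (adjusted p = 0.00343), with a list median of -0.07 and a list mean of 3.25 to 3.66 beside 3.45 to 3.82. Spink4 and Vip were also called in the effect of RYGB minus that of VSG, at -2.01 and -1.55. None of the 10 measured enteroendocrine, 7 smooth muscle and 4 Brunner gland genes was called, with list medians of 0.01, -0.21 and 0.22. The Brunner gland genes ran from -1.05 to 1.94. Over all genes 2.64% were called in RYGB against its sham. The part of these cells in the fall of Rab30 was not tested.

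No other Rab gene was called lower after bypass. Of the 42 genes 1 rose, 1 fell and 40 did not pass in RYGB against its sham. Over all genes 2.64% were called, 1.26% higher and 1.38% lower, and the 2 of 42 called, 4.76%, are read as no result about the family as a whole. At an unadjusted p under 0.05 there were 8 of the 42, beside 2056 of all 14557 genes. The differences of the other 41 genes lay between -0.55 and 0.89, and the lowest bound of any of their 95% intervals was -1.01. Rab30 had the most negative fold change of all 14557 genes, followed by Phospho1 at -2.93 and Ly6m at -2.73. By absolute size it ranked 13, after genes that include the acinar Prss1, Ctrb1 and Cela3b, and by p it ranked 16. The median over the family was 0.02, with 22 genes above 0 and 20 below, beside a median of 0.00 over all genes. For 29 of the 41 other genes (70.7%) the 95% interval lay within a 1.5-fold change in either direction, beside 73.4% of all genes. The family was chosen with the fall of Rab30 already known from these arrays, so its rank is a description.

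**Figure D2:**
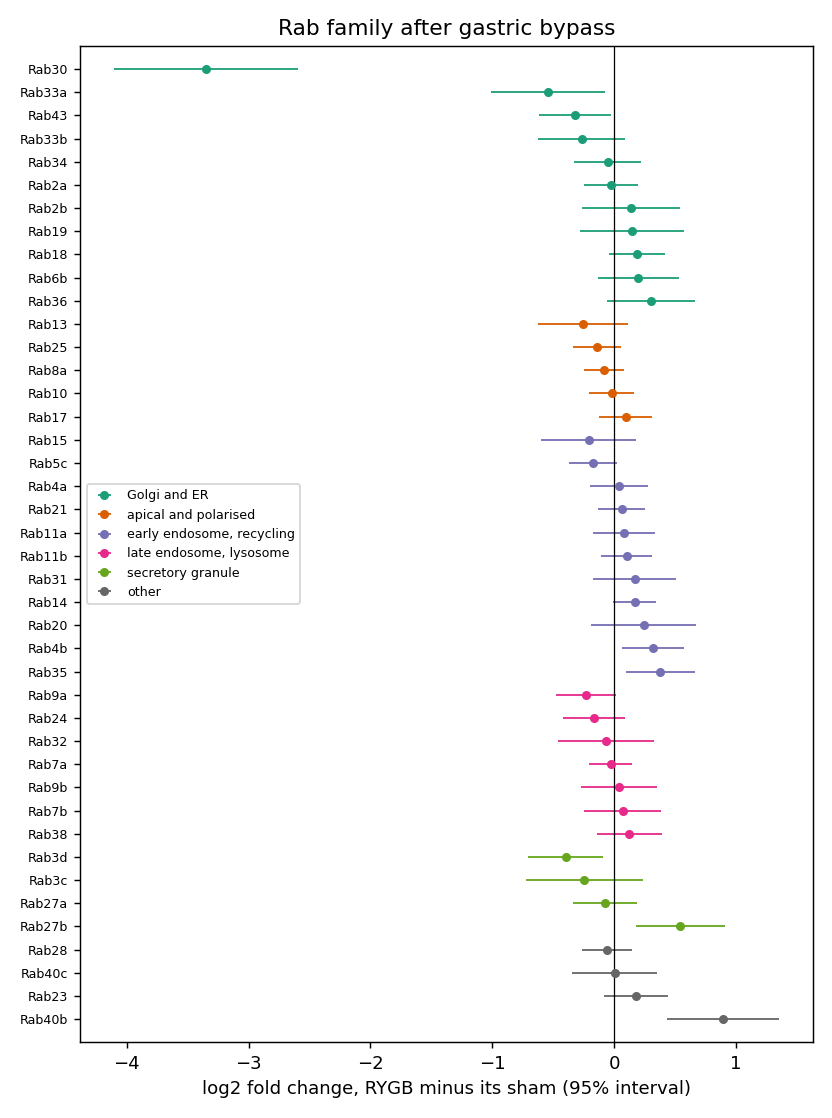
Log2 fold change of the 42 Rab genes in RYGB against its sham (horizontal axis, points) with the 95% interval as a line, 1 gene per row and coloured by role. Rab30 lies at -3.35, and the other 41 genes lie between -0.55 and 0.89.

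Among the Golgi and endoplasmic reticulum genes, 11 with Rab30 included, the other 10 did not pass. Rab33a, a Golgi protein, had RYGB arrays from 1.25 to 1.70 with a median of 1.55. Its 5 sham arrays were at 1.75, 1.87, 2.32, 2.50 and 1.82. The groups did not overlap, yet the difference of -0.55 ± 0.23 was not called (adjusted p = 0.248), and all these values lie below the array medians. Rab30 and Rab33a were the 2 of 42 genes whose RYGB and sham arrays did not overlap, beside 2.78% of all genes in either direction and 1.39% lower. Rab43, which also acts at the Golgi, was at 5.22 to 5.70 after RYGB and at 5.79, 6.18, 5.55, 5.75 and 5.69 in the sham, with a difference of -0.32 ± 0.14 (adjusted p = 0.306). Rab2a, which works between the endoplasmic reticulum and the Golgi, was at -0.03 ± 0.11. Rab18, known for its place on the endoplasmic reticulum and on lipid droplets, was at 0.19 ± 0.11.

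None of the 5 genes of apical and polarised traffic was called after bypass, and their differences lay between -0.26 and 0.09. Rab8a, which in mouse intestine is needed for placing proteins at the brush border, averaged 8.83 ± 0.10 (SD, n = 6) in bypassed rats, while sham rats averaged 8.91 ± 0.06 (SD, n = 5). Its difference was -0.08 ± 0.08, with a 95% interval from -0.25 to 0.08. Rab10 (-0.02 ± 0.09), Rab17, an epithelial Rab of transcytosis (0.09 ± 0.11), and Rab25, the epithelial relative of Rab11 (-0.14 ± 0.10), also had intervals within a 1.5-fold change. The interval of Rab13, a protein of tight junctions, reached from -0.63 to 0.12.

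The 11 genes of early endosomes and recycling included none that was called after bypass, with 9 above 0 and a median of 0.10. Rab35, which works in fast recycling, was at 5.72 to 6.32 with a median of 6.13 after RYGB and at 5.90, 5.56, 5.45, 6.10 and 5.48 in the sham. These groups overlapped, and the difference was 0.38 ± 0.14 (adjusted p = 0.168). Rab4b, another recycling Rab, was at 0.32 ± 0.12 (adjusted p = 0.208). Rab11a and Rab11b, the Rab proteins of the recycling endosome, were at 0.08 ± 0.12 and 0.10 ± 0.10, and Rab5c of the early endosome was at -0.18 ± 0.10. The 7 genes of late endosomes and lysosomes lay between -0.23 and 0.12, among them Rab7a, which directs cargo to lysosomes, at -0.03 ± 0.09. All 7 intervals lay within a 1.5-fold change, beside 73.4% of those of all genes. Of these genes, Rab9b and Rab38 had means of 1.90 and 2.51 over all arrays, below the array medians, and Rab7b was near them at 3.23. Their fold changes are inexact, so narrow intervals there say little.

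The 4 genes of secretory granules were spread more widely than the apical and endosomal genes above, from -0.40 to 0.54, and none passed. Rab27b, a Rab of regulated secretion, was at 4.57 to 5.68 with a median of 5.14 after RYGB, and at 4.74, 4.74, 4.20, 4.43 and 4.56 in the sham. The groups overlapped at a difference of 0.54 ± 0.18 (adjusted p = 0.112). Rab3d, which sits on secretory granules, was at 5.22 to 6.06 with a median of 5.79 after RYGB, and at 6.06, 6.07, 5.76, 6.31 and 6.07 in the sham. Its groups overlapped too, at -0.40 ± 0.15 (adjusted p = 0.174). Rab27b and Rab3d are known in rodent acinar cells, so their slopes against the acinar mean within the groups were taken from a fit of all genes. The slopes were -0.02 ± 0.03 and 0.03 ± 0.03 log2 units per unit of the acinar mean. None of the 42 genes passed that test (adjusted p from 0.926 upward), beside 0.254% of all genes. None of them had an unadjusted p under 0.05, beside 817 of all 14557 genes.

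Rab40b was the member that rose after bypass. Rab40 proteins carry a SOCS box through which they join ubiquitin ligases. Its RYGB arrays were at 2.44 to 3.47 with a median of 3.13, and its sham arrays at 2.32, 1.98, 1.62, 2.78 and 2.09. The groups overlapped, because 1 sham rat lay above the 2 lowest RYGB rats. Rab40b (Entrez gene 303754, probe set 17664172) was 1.86-fold higher (0.89 ± 0.23, limma adjusted p = 0.0247). Its sham arrays lie below the array medians, so this fold is inexact. The call was lost with the acinar mean as a covariate (0.73 ± 0.26, adjusted p = 0.195) and with the RYGB groups alone (0.89, adjusted p = 0.0856). The call was also lost without the 10 arrays highest in acinar transcripts (0.76, adjusted p = 0.373), which left 2 RYGB and 5 sham arrays. Leaving out any one of RYGB replicates 2, 4 and 6 also ended it, as did leaving out any one of sham replicates 2, 3 and 5 (0.76 to 0.88, adjusted p from 0.0551 to 0.0986). Its relative Rab40c was at 0.00, and of the other genes outside the groups above, Rab23 was at 0.18 and Rab28 at -0.06.

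**Figure D3:**
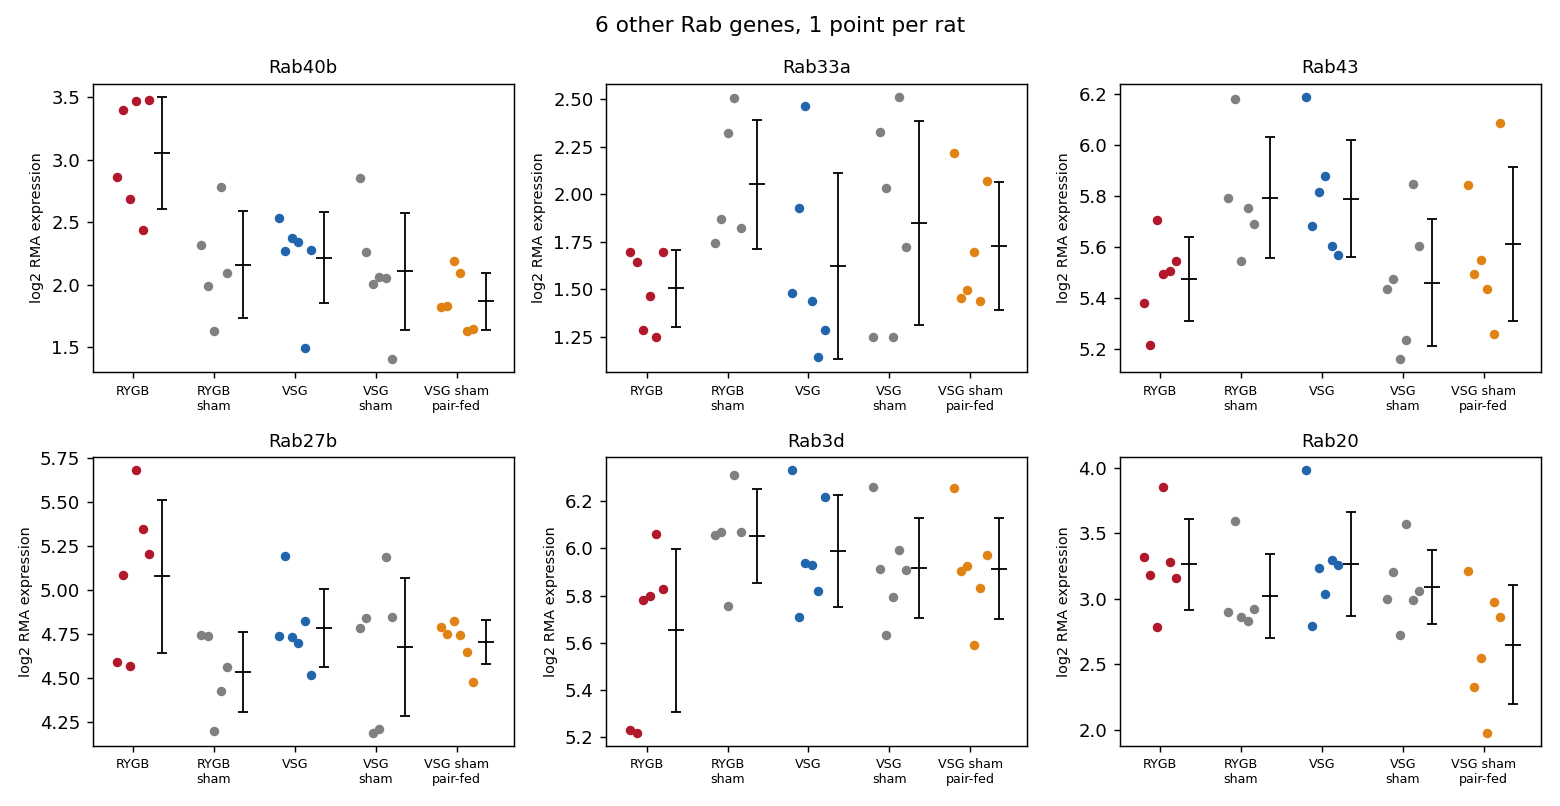
Expression of Rab40b, Rab33a, Rab43, Rab27b, Rab3d and Rab20 on the log2 RMA scale (vertical axes, which differ between panels and do not start at 0) in the 5 groups, with 1 point per rat and the group mean ± SD as a bar. Rab33a has no overlap between RYGB (1.25 to 1.70) and its sham (1.75 to 2.50), while the other 5 genes overlap between these groups.

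Sleeve gastrectomy was compared with its sham to ask whether the family moves with a surgery that keeps food in the duodenum. None of the 42 genes was called by limma, beside 0.179% of all genes. Rab43 and Rab35 alone had an unadjusted p under 0.05, beside 1308 of all 14557 genes. Rab43 was at 5.57 to 6.19 with a median of 5.75 after VSG and at 5.16 to 5.85 with a median of 5.45 in the sham, a difference of 0.33 ± 0.14 (adjusted p = 0.472). Rab35 was at 0.30 ± 0.13 (adjusted p = 0.515), and the largest difference in size was that of Rab3c, at 0.38 ± 0.22 (adjusted p = 0.664). The differences ran from -0.28, that of Rab36, to 0.38, with 28 genes above 0 and 14 below and a median of 0.06 beside -0.01 over all genes. For 34 of the 42 genes (81.0%) the 95% interval lay within a 1.5-fold change, beside 81.1% of all genes. Rab30 was at 0.26 ± 0.35, with an interval from -0.46 to 0.98 (adjusted p = 0.889).

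The effects of the surgeries on Rab30 differed. The effect of RYGB minus that of VSG was -3.61 ± 0.51 for Rab30 (limma adjusted p = 0.000146), the largest difference in absolute size of all 14557 genes. It contains the fall after RYGB for which Rab30 was chosen in these arrays. Its p and rank are therefore descriptions and no independent test. Rab30 was the 1 Rab gene called of 42, beside 0.392% of all genes (0.302% lower), and the difference of effects of the other 41 lay between -0.65 and 0.78. Rab43 was at -0.65 ± 0.20 and Rab40b at 0.78 ± 0.31, neither of them called (adjusted p = 0.212 and 0.432). For Rab43 the shams themselves stood apart by -0.33 ± 0.14, the VSG sham being lower (adjusted p = 0.892). For Rab30 the shams had means of 9.29 ± 0.32 (SD, n = 6) in the VSG set and 9.29 ± 0.50 (SD, n = 5) in the RYGB set, a difference of 0.00 ± 0.37. Across the sham sets none of the 42 genes was called, beside 0% of all genes. An unadjusted p under 0.05 was found for 4 of the 42, beside 757 of all 14557 genes. These 4 were Rab36 (0.46), Rab19 (-0.50), Rab43 and Rab24 (-0.27).

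**Figure D4:**
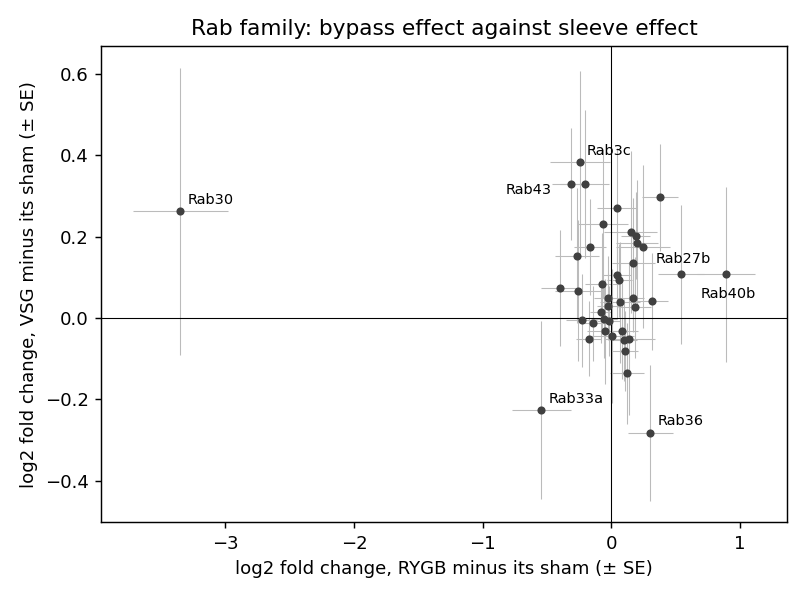
Log2 fold change of the 42 Rab genes in RYGB against its sham (horizontal axis) and in VSG against its sham (vertical axis), with lines of ± 1 SE and 7 genes named. The axes have different scales, and Rab30 lies at -3.35 and 0.26 while the other genes lie between -0.55 and 0.89 on the horizontal axis.

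Pair feeding gives sham rats the food intake of operated animals. The pair-fed rats here are shams of the VSG set, so they were used to ask how the family differs from VSG at matched intake. In pair-fed sham, Rab30 varied more between rats than in any other group. The values were 9.70, 6.60, 7.65, 9.15, 8.92 and 9.86, with 2 rats below all arrays of VSG and of both shams. The mean was 8.65 ± 1.27 (SD, n = 6), beside SDs from 0.15 to 0.50 in the other groups. The acinar mean of these 2 low rats was 5.06 and 3.53, and the 4 higher rats ranged from 3.23 to 8.85. Pair-fed sham and freely fed sham differed by -0.65 ± 0.35 (adjusted p = 0.92, exact permutation p = 0.318), and VSG and pair-fed sham by 0.91 ± 0.35 (adjusted p = 0.3, exact permutation p = 0.13). Without pair-fed replicate 2 these were -0.24 and 0.50.

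In rank of group means Rab30 was lowest after RYGB, next in pair-fed sham, and higher in the shams and VSG, and in this order the step from pair-fed sham to the others is within the spread of the pair-fed rats. RYGB was set against pair-fed sham after these levels had been seen. That comparison crosses the sets, so it is not one at intake matched to the RYGB rats, and it shares its arrays with those above. Rab30 was lower by 2.70 ± 0.35 after RYGB (log2 fold change -2.70, limma adjusted p = 1.16e-05, exact permutation p = 0.00216, adjusted p = 0.0054 over 5 comparisons), with no overlap between the groups. The pooled SE understates the spread of the pair-fed rats. In a limma fit of these groups alone the difference was -2.70 ± 0.44 (adjusted p = 0.00482). The adjustment over 5 comparisons does not allow for the choice of Rab30 from among all genes. Of the 42 genes Rab30 was called lower and Rab40b higher (1.19 ± 0.22, adjusted p = 0.000962), beside 3.24% of all genes. The pair-fed arrays of Rab40b, at 1.63 to 2.19 (median 1.82), lie below the array medians, so its fold is inexact. Both calls were lost without the 10 arrays highest in acinar transcripts, which left 2 RYGB and 4 pair-fed arrays, where Rab30 was at -2.08 (adjusted p = 0.0796) and Rab40b at 0.99 (adjusted p = 0.186), and both were there with the acinar mean as a covariate.

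The comparisons of VSG with sham, VSG with pair-fed sham and pair-fed sham with sham share their arrays and are not independent. None of the 42 genes was called by limma between VSG and pair-fed sham or between pair-fed and freely fed sham, beside 0.508% and 0% of all genes. At an unadjusted p under 0.05 there were 4 and 3, beside 1609 and 811 of all 14557 genes. Rab20, an endosomal Rab with a level near the array medians, was at 1.98 to 3.21 with a median of 2.71 in pair-fed sham. It was at 2.72 to 3.57 with a median of 3.03 in the sham and at 2.79 to 3.98 with a median of 3.25 in VSG. All 3 groups overlapped, and the differences were -0.44 ± 0.20 for pair-fed against sham (adjusted p = 0.867) and 0.62 ± 0.20 for VSG against pair-fed sham (adjusted p = 0.185). Rab9b (0.38 ± 0.15, adjusted p = 0.818) and Rab19 (0.41 ± 0.20, adjusted p = 0.894) had the largest positive differences between pair-fed sham and sham. Between VSG and pair-fed sham, Rab15 was at 0.40 ± 0.18, Rab40b at 0.35 ± 0.22 and Rab32 at 0.34 ± 0.18. The interval lay within a 1.5-fold change for 34 genes (81.0%) in VSG against pair-fed sham and for 36 (85.7%) in pair-fed sham against sham. Over all genes these shares were 79.8% and 83.3%. The family's medians were 0.04 and 0.03, beside -0.02 and 0.01 over all genes.

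Pooled over the 5 groups, the SD of Rab30 between rats of a group was 0.66, the highest of the 42 genes and above that of 99.2% of all genes. This rank rests on the pair-fed rats: over the other 4 groups its SD was 0.36, below those of Rab40b (0.43), Rab33a (0.42), Rab3c (0.38) and Rab19 (0.37). For the other 41 genes the SD over all 5 groups ran from 0.10 for Rab8a to 0.41 for Rab3c, with a median of 0.22 beside 0.26 over all genes. Rab14 and Rab7a, at 0.12 each, were lower than over 97% of the genes measured, and Rab33a, Rab40b and Rab20, which are dim, were at 0.40, 0.40 and 0.37.

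The proteins that load, extract and switch off Rab GTPases, and the effectors that active Rab proteins recruit, were described as 4 lists with 97 genes measured of 163 listed. Of these, 3 rose, 1 fell and 93 did not pass in RYGB against its sham, with a median of 0.05. None of the 6 measured genes of prenylation and recycling and none of the 25 measured exchange factors was called in any of the 4 comparisons of surgery or feeding. In RYGB the called genes were 3 of 23 TBC proteins, all higher, and 1 of 43 effectors, lower, beside 2.64% of all genes. In the other 3 comparisons none of these 97 genes was called.

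Tbc1d21, a TBC protein known from male germ cells in mouse, was at 4.10 to 5.84 with a median of 4.68 after RYGB and at 2.66, 2.97, 2.75, 2.79 and 2.97 in the sham. All RYGB rats lay above all rats of every other group, whose highest value was 3.34 in VSG. It was 3.93-fold higher (1.98 ± 0.21, limma adjusted p = 4.06e-07), with the sham near the array medians, so the fold is inexact. VSG and its sham differed by 0.39 ± 0.20 (adjusted p = 0.595), and the effect of RYGB minus that of VSG was 1.58 ± 0.30 (adjusted p = 0.00627).

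The other called genes moved less. Tbc1d24, a TBC protein of vesicle traffic at synapses, was at 5.73 to 6.57 with a median of 6.27 after RYGB and at 5.63, 5.52, 5.72, 5.86 and 5.80 in the sham, a rise of 0.54 ± 0.13 (adjusted p = 0.0183). Tbc1d10c, known from lymphocytes as an inhibitor of calcineurin, rose by 0.53 ± 0.15 (adjusted p = 0.045). Mical1, an actin-oxidising enzyme that binds Rab proteins, fell by 0.50 on the log2 scale (-0.50 ± 0.14, adjusted p = 0.0405). The RYGB and sham arrays of Tbc1d10c did not overlap, whereas those of Tbc1d24 and Mical1 did. None of these 3 calls held in all alternatives. All 3 were lost with the RYGB groups alone, without the 10 arrays highest in acinar transcripts and with the replicate block, and that of Tbc1d10c also with the acinar mean as a covariate, with centred arrays and with a trended and robust prior. Tbc1d24 was not called in 7 of 21 alternatives (0.47 to 0.64 over all 21, adjusted p up to 0.114), among them the fits that left out RYGB replicate 1, RYGB replicate 6, and each of sham replicates 1 and 2. Tbc1d10c was not called in 15 (0.41 to 0.59, adjusted p up to 0.63), among them the fits that left out each of RYGB replicates 1 to 4 and each sham replicate. Mical1 was not called in 12 (-0.63 to -0.42, adjusted p up to 0.317), among them the fits that left out each of RYGB replicates 2 to 6 and each of sham replicates 1, 2, 3 and 5. The mean of the 16 measured leukocyte genes was 5.38 to 6.28 after RYGB and 5.66 to 6.07 in its sham, with a median difference of -0.20 and none called. Its part in these results was not tested.

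**Figure D5:**
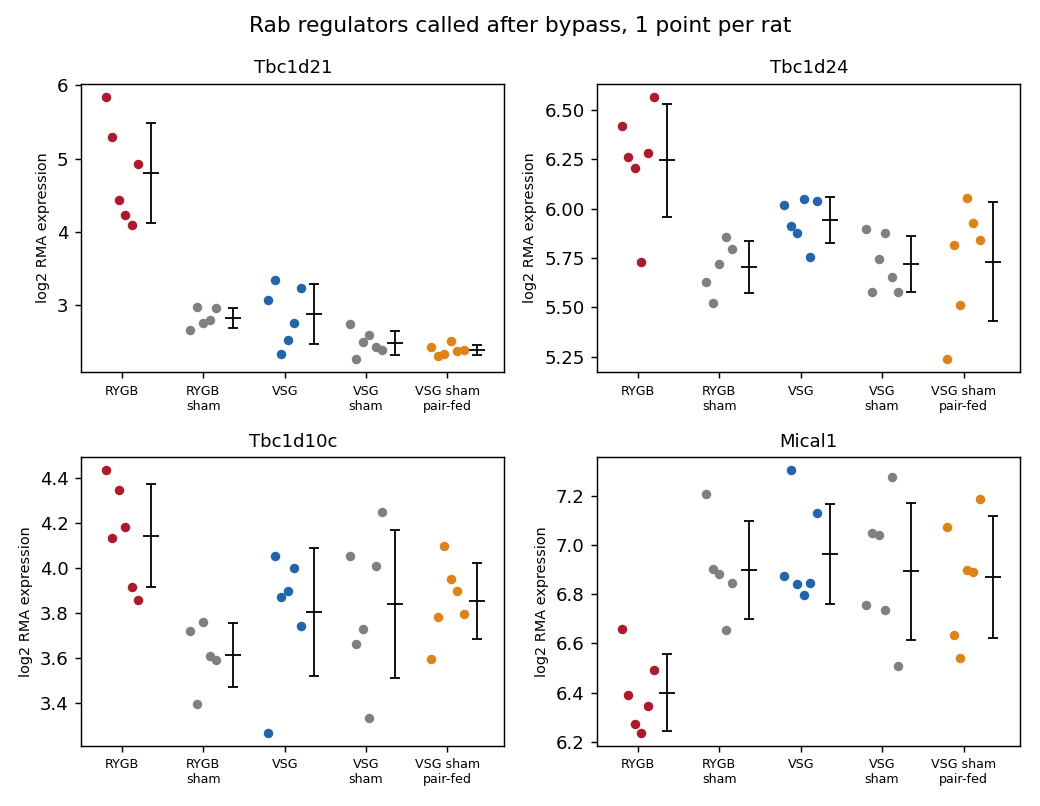
Expression of Tbc1d21, Tbc1d24, Tbc1d10c and Mical1 on the log2 RMA scale (vertical axes, which differ between panels and do not start at 0) in the 5 groups, with 1 point per rat and the group mean ± SD as a bar. For Tbc1d21 the RYGB rats lie at 4.10 to 5.84 and all other rats at 3.34 or lower.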

How the data were processed

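Expression was measured on Affymetrix arrays with 1 array per rat. The values the authors deposited are log2 expression, and the submitters' processing notes name RMA and Expression Console 1.3.0.187. No source used here gives the chip definition, the genome build or any filter, and coordinates are therefore not printed. Samples were grouped by their titles, which number the rats as replicates. The labels call these biological. The number of arrays limits the precision.

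The table has 36685 rows. A single gene symbol was attached to 14824 of them, several to 829 and none here to 21032. Entrez numbers gave current symbols from the GRCr8 gene table (154 not found), and the row with the highest mean stood for a gene, which left 14557 genes. A model of 5 group means was fitted with limma 3.58.1 in R 4.3.3 (lmFit, eBayes), with two-sided tests and Benjamini-Hochberg adjustment over the genes of each contrast. The slope against the acinar mean came from the same model with that mean added. The fit was tested on simulated data.

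The members and lists were chosen with earlier results of these data known. Named were Rab30, called members, the 5 largest differences in each of 4 comparisons, and called regulators. A gene named outside this rule (Rab2a, Rab8a, Rab11a and others given as examples of a role, and Phospho1, Ly6m and marker genes) was chosen after its values were seen. Replicate numbers were not used as pairs in the main fit. Same-numbered rats' deviations correlated at -0.22 to 0.23 over genes, which cannot show whether the numbers mark pairs.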

Additional observations from a re-analysis of the deposited data

Results flagged for a closer look

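Rab30 and Tbc1d21 are listed here because the effect of RYGB and that of VSG differed by a test of the difference itself. Rab30 had been chosen for its fall after RYGB, and Tbc1d21 was named for its call after RYGB. The test uses the same RYGB and sham arrays, so it is not independent of that choice. The RYGB effect minus the VSG effect was -3.61 for Rab30 (limma adjusted p = 0.000146) and 1.58 for Tbc1d21 (adjusted p = 0.00627).

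Single rats far from the rest of their group were sought for 18 named genes in 5 groups, with Dixon's ratio in each of 90 gene and group pairs, where chance alone marks about 1 in 20. The rats marked were VSG replicate 5 for Rab40b, at 1.49 with the nearest rat at 2.27, VSG sham replicate 5 for Rab3c, at 3.06 with the nearest at 3.70, and RYGB sham replicate 2 for Rab20, at 3.59 with the nearest at 2.92.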

How the results depend on the processing

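The fall of Rab30 after RYGB kept its call in all 10 alternatives and in all 11 fits without 1 array, from -3.66 to -3.30 and from -3.49 to -3.16. Averaging the rows of a gene, an alternative in every comparison, could not change the values of Rab30, since each Rab gene has 1 row. The effect of RYGB minus that of VSG on Rab30 was called in all of its alternatives, from -3.74 to -3.61, and from -3.75 to -3.42 without 1 array, with adjusted p = 0.045 without the arrays highest in acinar transcripts. The number of Rab genes called after RYGB was 2, and 1 with the dimmest genes left out (which removes Rab40b among 5 members), with the groups compared alone, with the acinar mean as a covariate and without the arrays highest in it. It was 1 or 2 without single arrays. In the other member counts (VSG, pair feeding, difference of effects, shams, acinar slope) no alternative changed the number. Counts over all genes moved more. After RYGB, 385 genes were called, and 192 with its groups alone, 214 with the covariate and 79 without the arrays highest in it. The last of these settings kept only 2 RYGB arrays beside 5 sham arrays, so fewer arrays and acinar content cannot be told apart in that count. Leaving out single arrays gave 284 to 447. VSG against its sham called 26, and 6, 8 and 0 under the same settings, with 7 to 24 without single arrays. VSG against pair-fed sham called 74, and 11, 48 and 8 under them, with 17 to 70 without single arrays. It called 123 without the dimmest genes, 49 with arrays centred and 113 with a trended and robust prior. The difference of effects called 57, and 9 without the arrays highest in acinar transcripts. With the replicate block, RYGB called 2 Rab genes and 242 genes in all, with Rab30 at -3.37 (adjusted p = 4.2e-05), and it changed no call of a Rab gene. The same block gave 5, 48, 33 and 23 genes for VSG against sham, VSG against pair-fed sham, the difference of effects and the acinar slope, which had 37. For the shams of both sets the block could not be fitted, since it lies within a set. RYGB against pair-fed sham, whose alternatives were chosen after seeing the data, called 2 Rab genes, 1 without the dimmest genes and 0 without the arrays highest in acinar transcripts. Without single arrays that comparison called 2 or 3. Rab30 was called in 20 of its 21 alternatives there (-3.11 to -2.08), and the block could not be fitted across the sets.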

Other observations

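None of the genes next to Rab30 on its chromosome was called after bypass, beside 2.64% of all genes. At that share, none called among so few genes is read as no result about the region. In the gene order of the GRCr8 assembly the 3 nearest measured genes on either side are Ccdc90b, Ankrd42, Pcf11, Ddias, Prcp and Fam181b. Their differences in RYGB against its sham lay between -0.14 and 0.11, with limma adjusted p from 0.569 to 0.964. Pcf11, a factor of transcript cleavage at the 3' end, was at -0.13 ± 0.09, and Prcp, a lysosomal carboxypeptidase, at 0.11 ± 0.12. These genes were chosen after the fall of Rab30 was known.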
